A study of Daphnia magna with 2 samples.

Results

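Single cells of the water flea Daphnia magna that carried the library codes MY1 or MY2 were compared with cells that carried FYB or FYH. All 4 codes belong to 1 of the 2 samples of the series, the mixed one, prepared from whole bodies with collagenase at 4 mg per ml and barcoded in droplets by inDrops, which counts transcripts of polyA RNA by unique molecular identifiers (UMIs). Cells were taken as barcodes with at least 500 UMIs, which gave 246 for MY1, 452 for MY2, 1103 for FYB and 179 for FYH. These 1980 cells were part of 2253 in the mixed sample and of 4352 in the series. The series' design names comparisons of sex, of age and of body with head, but no source used here says which code stands for which class, and none gives the clone, the age in days, the number of animals or the temperature behind a code. The codes are therefore used as names only, and the 2 codes of a pair are not known to be replicates of each other. Whether every code was made from whole bodies is not known either.

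In Daphnia, as in other animals, the germ line is a main site of cell division in the adult and the only site of meiosis. Dividing cells copy their DNA with the origin recognition complex and the MCM helicase, hold and fold the copies with cohesin and condensin, separate them with kinesins on a spindle, and divide the cell with a contractile ring. Germ cells of many animals leave that last step unfinished and stay joined by intercellular bridges, and they use Piwi proteins and Tudor-domain proteins to silence transposons with piRNAs. Somatic tissues of a whole-body sample, such as nerve, eye, gut, cuticle epidermis and blood cells, bring their own well-known markers.

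Many genes of cell division and of the germ line were higher in both MY1 and MY2 than in both FYB and FYH, and many genes of nerve cells, of digestion and of hormone signalling were lower. TEX14/ILK, whose human relative acts in germ cells, was for example at 1213 and 1475 CPM (counts per 1000000) in MY1 and MY2 and at 30.2 and 9.19 CPM in FYB and FYH. The secreted ribonuclease RNASET2/RNASEX25 was at 319.6 and 193.1 CPM in MY1 and MY2 and at 6372 and 5133 CPM in FYB and FYH. Gene names are given as in the files, the nearest human symbol before the slash and the nearest fly symbol after it, and a single symbol stands where only 1 is given or both are the same. The roles stated below are those known in human or fly.

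Counts were summed over the cells of each code and scaled to CPM. Among 33957 listed genes, 6418 had at least 50 counts over the 4 sums. A gene was called higher when the lower of its MY values was at least 2 times the higher of its FY values, and lower when the higher MY value was at most 1/2 of the lower FY value. Counts under 3 were set to 3 in ratios. By this rule 1432 genes (22.3%) were called higher in MY1 and MY2 and 578 (9.01%) were called lower, 2010 (31.3%) in all. Without any gap, and with the same floor, the codes did not overlap for 3301 genes (51.4%) in the higher direction and 1597 (24.9%) in the lower one. The floor was highest in FYH. Genes with few or no counts in FYH, MY1 and MY2 could thus count as lower without overlap, here and in the lists below. With a 4-fold gap 409 genes (6.37%) were called higher and 236 (3.68%) lower. The design allows no test, since the 4 codes are libraries of 1 sample, and an exact two-sided permutation of 2 values against 2 could not go below p = 0.333. Intervals below are exact 95% intervals that cover counting error only. In summed libraries, more cells of a type and more RNA of a gene per cell cannot be told apart, and this holds for every level above. With 1 library per code, a difference between the pairs also cannot be told apart from a difference between library preparations. The count of genes called higher was 2271 without FYB, and the count called lower was 993 without MY1, 884 without FYB and 964 without FYH.

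The genes called higher held 28.1% and 31.6% of all UMIs in MY1 and MY2 and 7.42% and 5.50% in FYB and FYH. Those called lower held 3.57% and 2.86% in MY1 and MY2 and 21.6% and 24.6% in FYB and FYH. The median log2 ratio of the mean MY CPM to the mean FY CPM over all tested genes was 0.49, so the centre of the distribution lay above 0. When the 4 sums were scaled by TMM, which centres the bulk of genes, that median was -0.08 and the calls were 733 higher and 1106 lower. The floor of 3 counts was scaled as well. A gene with few or no counts in FYH and in both MY codes could therefore be called lower under TMM from the floor alone. The share of calls that were higher was thus 71.2% by total count and 39.9% by TMM, and calls under TMM are given below where they differ, beside list medians as measured and relative to the median of all genes.

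**Figure D1:**
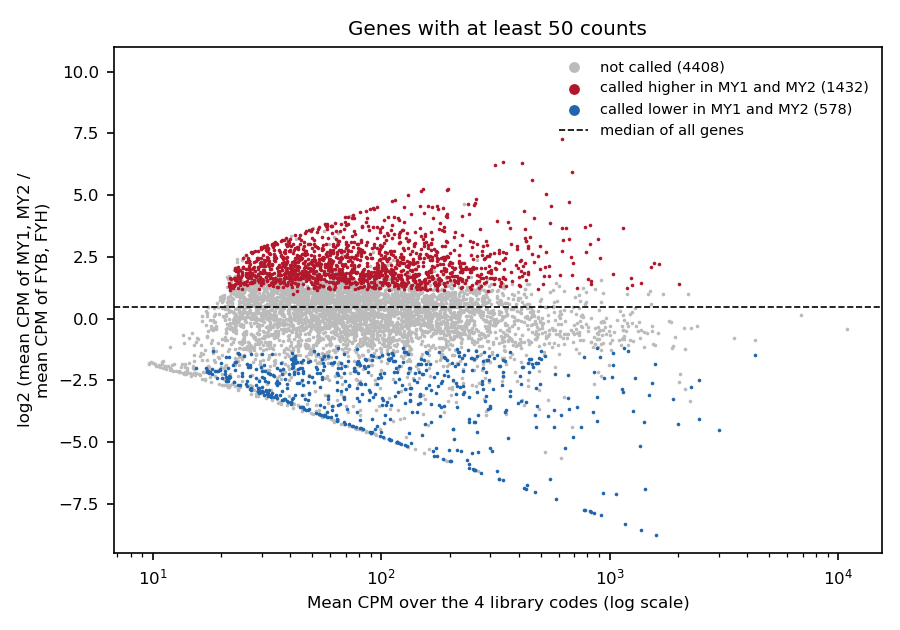
Each point is 1 of the 6418 genes with at least 50 counts, with its mean CPM over MY1, MY2, FYB and FYH on a log scale and its log2 ratio of the mean MY CPM to the mean FY CPM (counts under 3 set to 3). The 1432 genes called higher lie above and the 578 called lower lie below the dashed median of 0.49, and the straight lower edge is made by genes with no or few counts in MY1 and MY2.

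The codes also differed within the pairs, and less so for MY. At an equal depth of 217618 counts each, the Pearson correlation of log2 CPM across the 6418 genes was 0.827 between MY1 and MY2, 0.674 between FYB and FYH, and 0.292 to 0.386 across the pairs. These are descriptions across genes, which share their libraries and are not replicates. Among the 3005 genes with at least 200 counts, 10.4% differed 2-fold or more between MY1 and MY2, 24.1% between FYB and FYH, and 46.2% to 58.6% across the pairs.

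The 4 codes were close in depth per cell and differed in the number of genes detected. The median cell had 901 to 1087.5 UMIs, and the summed counts were 306589, 616309, 1326669 and 217618 for MY1, MY2, FYB and FYH. Thinned to 500 UMIs per cell, the median number of genes was 419 and 425 in MY1 and MY2 and 342 and 324 in FYB and FYH. A count of 0 allows up to 9.79, 4.87, 2.26 and 13.8 CPM in the same order, so FYH had the highest floor. Barcodes of at least 500 UMIs held 46.5% and 56.6% of the UMIs of MY1 and MY2 and 25.7% and 28.2% of those of FYB and FYH, so more of the RNA of the FY codes sat in smaller barcodes. Values from those smaller barcodes are given at the end. Barcodes are numbered without their sequence in the files, so cell barcodes shared between libraries could not be counted. Each code was run on 2 lanes.

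The meiosis and spermatogenesis list had 10 genes with counts, of which 8 passed the minimum of 50. Of these, 4 were called higher and none lower, with a median log2 ratio of 2.24, which is 1.75 above that of all genes. Calls by total count in this and the later lists stand beside 22.3% of all genes called higher and 9.01% called lower. TEX14/ILK (DAPMA1EVG032141), whose human relative keeps the bridges between germ cells open, differed by 40.2-fold between the nearest codes (29.0 to 57.3). Its nearest fly gene is a different one, the integrin-linked kinase.

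RBM46/SYP (DAPMA1EVG032562), an RNA-binding protein that germ cells need for meiosis in mammals, was at 795.9 and 847 CPM in MY1 and MY2 and at 6.78 and 4.595 CPM in FYB and FYH. The FYH value was 1 count. With that count set to 3 the gap was 57.7-fold, and the ratio of MY1 to FYH as found was 173.2 (30.8 to 6868). MSH5/SPEL1 (DAPMA1EVG018134), whose human relative stabilises crossovers, was at 97.9 and 139.5 CPM against 21.1 and 9.19 CPM.

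The list was not uniform. BOLL/BOL (DAPMA1EVG028288), a meiotic translation regulator of the DAZ family, was at 208.7 and 178.5 CPM in MY1 and MY2 and at 193 and 59.7 CPM in FYB and FYH, so MY2 lay below FYB. ODF3/CG8086 (DAPMA1EVG016752), named for the outer dense fibres of the mammalian sperm tail, was at 159.8 and 173.6 CPM in MY1 and MY2 and at 208.8 and 234.4 CPM in FYB and FYH. Both MY codes were the lower ones there, by less than the 2-fold gap.

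The germline and piRNA list gave 9 genes called higher and 1 called lower of 16 tested, among 27 with counts, with a median log2 ratio of 1.62 (1.14 above all genes). TMM gave 8 higher and 1 lower. TDRD1/TUD (DAPMA1EVG024108), a Tudor-domain scaffold that binds Piwi proteins, was at 945.9 and 1189 CPM in MY1 and MY2 and at 68.6 and 23.0 CPM in FYB and FYH, a gap of 13.8-fold (10.9 to 17.7). TDRKH/PAPI (DAPMA1EVG032873), which helps trim piRNAs, was at 101.1 and 141.2 CPM against 6.78 and 4.595 CPM. FKBP6/SHU (DAPMA1EVG012235), a co-chaperone for loading Piwi proteins, was at 153.3 and 227.2 CPM against 33.2 and 23.0 CPM.

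Genes nearest to the Piwi protein AUB pointed in opposite directions. DAPMA1EVG018783 was at 469.7 and 530.6 CPM in MY1 and MY2 and at 63.3 and 18.38 CPM in FYB and FYH, a gap of 7.42-fold upward (5.63 to 9.83). DAPMA1EVG018095 was at 29.4 and 9.74 CPM in MY1 and MY2 and at 180.9 and 68.9 CPM in FYB and FYH, a gap of 2.35-fold downward whose interval of 0.963 to 6.09 includes 1. A further AUB gene (DAPMA1EVG012030) was at 326.2 and 293.7 CPM against 329.4 and 119.5 CPM, and the codes overlapped.

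DNA replication had 26 genes tested of 34 with counts, and 18 of them were called higher and none lower, at a median log2 ratio of 1.92 (1.43 above all genes). The helicase subunit MCM3 (DAPMA1EVG027423) was at 300.1 and 394.3 CPM in MY1 and MY2 and at 40.7 and 36.8 CPM in FYB and FYH, a gap of 7.37-fold (5.21 to 10.5). TOP2A/TOP2 (DAPMA1EVG016347), the topoisomerase that untangles chromosomes, was at 1148 and 1246 CPM against 123.6 and 64.3 CPM, a gap of 9.29-fold (7.70 to 11.3). The flap nuclease FEN1 (DAPMA1EVG021055) was at 260.9 and 293.7 CPM against 40.7 and 4.595 CPM. Called members came from origin binding (ORC1 and ORC2), the helicase and its activators (MCM3, MCM4/DPA, MCM6, CDC45, GINS3), synthesis (POLE, PRIM2, RFC1, RFC3, RPA1) and nucleotide supply (RRM1, TYMS). The helicase loader CDC6 was not called, at 35.9 and 38.9 CPM against 34.7 and 4.595 CPM, and neither was the ligase LIG1/DNALIG1, at 137 and 189.8 CPM against 82.9 and 105.7 CPM. POLA2, a subunit of polymerase alpha, was at 48.9 and 38.9 CPM against 41.5 and 46.0 CPM, and its codes overlapped. Under TMM 11 of the 26 were called, all higher.

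The SMC and cohesin list had the highest share of calls of all lists, 12 of 14 tested, all higher, with a median log2 ratio of 2.35 (1.86 above all genes). TMM left 10 called higher and none lower. SMC3 (DAPMA1EVG026726), a ring subunit of cohesin, was at 433.8 and 498.1 CPM in MY1 and MY2 and at 23.4 and 9.19 CPM in FYB and FYH, a gap of 18.6-fold (12.5 to 28.4). Another gene with the symbol SMC3 (DAPMA1EVG027250) was at 91.3 and 112 CPM against 47.5 and 23.0 CPM and missed the 2-fold gap. SMC1A/SMC1 (DAPMA1EVG021684), the partner of SMC3 in cohesin, was at 548 and 465.7 CPM against 134.2 and 119.5 CPM, a gap of 3.47-fold (2.87 to 4.21). Condensin, which compacts chromosomes, was represented by SMC4/GLU at 277.2 and 408.9 CPM against 43.7 and 9.19 CPM and by NCAPH/BARR at 176.1 and 210.9 CPM against 10.6 and 13.8 CPM. WAPL, which releases cohesin, was the other member without a call, at 127.2 and 170.4 CPM against 68.6 and 46.0 CPM.

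In the mitosis list 12 of 23 tested genes were called higher and none lower, with a median log2 ratio of 2.35 (1.87 above all genes) and the same number called under TMM. AURKA/AURA (DAPMA1EVG020497), the spindle-pole kinase Aurora A, was at 267.5 and 405.6 CPM in MY1 and MY2 and at 14.3 and 13.8 CPM in FYB and FYH, a gap of 18.7-fold (11.2 to 32.6). KIF11/KLP61F (DAPMA1EVG027929), the kinesin that pushes spindle poles apart, was at 1425 and 1796 CPM against 215.6 and 124.1 CPM, a gap of 6.61-fold (5.68 to 7.70). KIF18A/KLP67A (DAPMA1EVG012464), which trims spindle microtubules, was at 727.4 and 1038 CPM against 50.5 and 55.1 CPM. PLK4/SAK, the kinase that starts centriole duplication, was at 101.1 and 100.6 CPM against 3.77 and 4.595 CPM.

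The mitotic cyclins did not move together. CCNA1/CYCA was at 55.4 and 82.8 CPM in MY1 and MY2 and at 11.3 and 4.595 CPM in FYB and FYH and was called higher. CCNB1/CYCB (DAPMA1EVG030556) was at 596.9 and 905.4 CPM against 948.2 and 257.3 CPM, and CCNB2/CYCB (DAPMA1EVG019766) was at 404.5 and 580.9 CPM against 1020 and 243.5 CPM. FYB was the highest code for both cyclin B genes and FYH the lowest, so neither separated the pairs. CDC20/FZY, the activator of cyclin destruction, was at 528.4 and 511.1 CPM against 335.4 and 248.1 CPM, without overlap but short of 2-fold.

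Cytokinesis, a list drawn up after the values were seen, had 7 of 15 tested genes called higher and none lower, with a median log2 ratio of 1.16 (0.67 above all genes). KIF23/PAV (DAPMA1EVG012797) and RACGAP1/TUM (DAPMA1EVG021453) together form centralspindlin, which places the contractile ring. KIF23/PAV was at 887.2 and 1155 CPM in MY1 and MY2 and at 39.2 and 23.0 CPM in FYB and FYH, a gap of 22.6-fold (16.8 to 31.1). RACGAP1/TUM was at 329.4 and 392.7 CPM against 18.1 and 9.19 CPM, a gap of 18.2-fold (11.6 to 29.7). SHCBP1/NESD (DAPMA1EVG023636), whose mammalian relative binds RACGAP1, was at 277.2 and 348.9 CPM against 12.8 and 0 CPM, at least 20.1-fold higher against the 3-count floor of FYH.

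Citron kinase CIT/STI (DAPMA1EVG019569), which stabilises the midbody, was at 1275 and 1618 CPM against 112.3 and 110.3 CPM, a gap of 11.4-fold (9.38 to 13.8). Anillin (ANLN/SCRA), the ring scaffold, was called higher, at 169.6 and 254.7 CPM against 30.2 and 46.0 CPM. Other parts of the ring went without a call and differed in direction. RHOA/RHO1, the switch that starts the ring, was at 538.2 and 670.1 CPM, above both FY codes, of which FYH was the higher at 307.9 CPM, and the septin SEPT2/SEP1 at 313.1 and 357 CPM against 157.5 and 142.5 CPM. MYL9/SQH, the myosin light chain, was at 567.5 and 376.4 CPM in MY1 and MY2 and at 1007 and 827.1 CPM in FYB and FYH, and SEPT9/PNUT, another septin, at 140.3 and 81.1 CPM against 363.3 and 252.7 CPM. Under TMM 3 members of the list were called lower, beside 7 called higher.

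**Figure D2:**
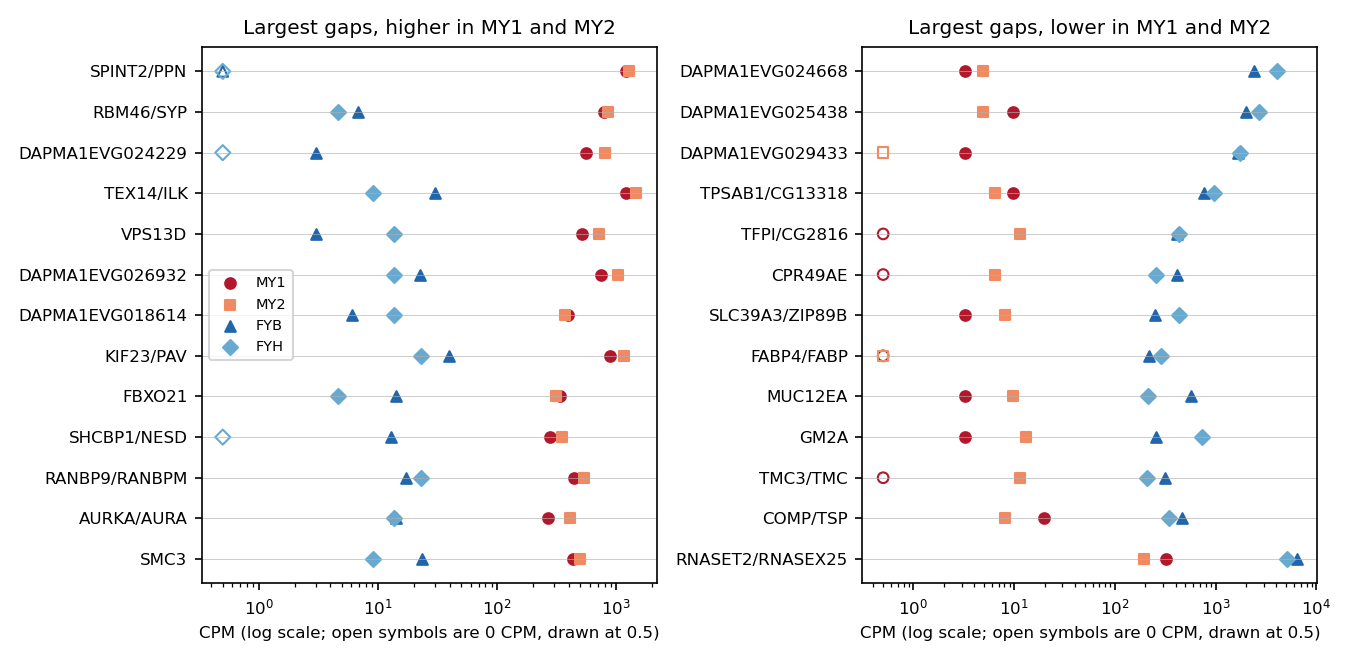
CPM on a log scale in MY1, MY2, FYB and FYH for the 10 genes with a symbol and the 3 without that had the largest gap between the nearest codes in each direction, among genes with at least 200 counts. The genes were chosen for this gap, so the separation of the pairs is given by the choice. MY1 and MY2 lie close together for the genes called higher, and several genes called lower have 0 CPM (open symbols at 0.5) in MY1 and a few counts in MY2, such as TMC3/TMC at 0 and 11.4 CPM.

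Of the 10 histone genes tested, 4 were called higher and 1 lower. The linker histone H1F0/HIS1:CG33861 (DAPMA1EVG004595) was at 949.2 and 675 CPM in MY1 and MY2 and at 80.7 and 82.7 CPM in FYB and FYH, a gap of 8.16-fold (5.10 to 13.9). HIST1H4A/HIS4:CG33909 (DAPMA1EVG011260), a core histone H4, was at 3.26 and 1.62 CPM against 73.9 and 36.8 CPM and was the member called lower. Of the 8 tubulins tested 2 were called higher, a share near the 22.3% of all genes. TUBB4B/BETATUB56D (DAPMA1EVG016801) was at 750.2 and 913.5 CPM against 202 and 82.7 CPM, and the spindle nucleation factor TUBGCP3/GRIP91 at 123.9 and 115.2 CPM against 16.6 and 0 CPM. The other 6 were not called, among them the beta tubulin DAPMA1EVG022446 at 2355 and 2213 CPM against 1244 and 1052 CPM.

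The ciliary axoneme and transport list was thinly covered, with 9 of 30 genes with counts passing the minimum. Of these 2 were called higher and none lower, a share like the 22.3% of all genes. Both are parts of dynein motors, DNAH5/CG9492 (DAPMA1EVG019898) and DNAI1/CG9313 (DAPMA1EVG011560). DNAH5/CG9492 was at 140.3 and 180.1 CPM against 11.3 and 32.2 CPM, and DNAI1/CG9313 was at 169.6 and 188.2 CPM against 27.9 and 18.38 CPM. A further axonemal dynein heavy chain, DNAH9/DHC93AB, was at 32.6 and 38.9 CPM against 28.6 and 55.1 CPM, and the codes overlapped. Of the 9 genes 8 were higher without overlap, beside 51.4% of all genes, most by less than the 2-fold gap, such as the intraflagellar transport gene IFT122/OSEG1 at 81.5 and 133.1 CPM against 48.2 and 46.0 CPM.

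Doublesex, a transcription factor that directs male development in Daphnia magna, was too low to call. Both genes with the symbol DMRT1/DSX stayed under 50 counts and were picked out after their values were seen. DAPMA1EVG027480 had 14 and 4 counts in MY1 and MY2 and 4 and 1 in FYB and FYH. DAPMA1EVG027481 had 6 and 11 counts in MY1 and MY2 and 3 and 0 in FYB and FYH. The sex determination list otherwise had 2 genes tested and none called.

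Among the genes with a symbol that had the largest gaps upward, several lay outside these lists. SPINT2/PPN (DAPMA1EVG020094), nearest to Kunitz-type protease inhibitors, was at 1197 and 1282 CPM in MY1 and MY2 and at 0 and 0 CPM in FYB and FYH, at least 86.8-fold higher. VPS13D (DAPMA1EVG023969), a lipid transfer protein of organelle contacts, was at 518.6 and 722 CPM against 3.02 and 13.8 CPM. FBXO21 (DAPMA1EVG029351), a ubiquitin ligase subunit, was at 336 and 314.8 CPM against 14.3 and 4.595 CPM.

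RANBP9/RANBPM (DAPMA1EVG015946), a scaffold protein that acts in the germ-line niche in fly, was at 443.6 and 537.1 CPM against 17.3 and 23.0 CPM. Genes without a symbol were called higher as often as the others, 445 of 1992 (22.3%) beside 987 of 4426 (22.3%). The leading gene without a symbol, DAPMA1EVG024229, was at 557.7 and 808 CPM in MY1 and MY2 and at 3.02 and 0 CPM in FYB and FYH.

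How widely a gene was spread over cells differed between these genes. TEX14/ILK had a UMI in 56.9% of MY1 cells and 66.6% of MY2 cells, and in 36.6% and 46.5% when every cell was thinned to 500 UMIs. In FYB and FYH the thinned shares were 0.907% and 1.12%. SPINT2/PPN had a UMI in 10.2% of MY1 cells and 5.31% of MY2 cells. It had none in 1103 FYB cells and in 179 FYH cells, and the 3 counts that a count of 0 allows correspond to shares of up to 0.272% and 1.68%. The single cell with most SPINT2/PPN counts held 23.2% of them in MY1 and 14.7% in MY2, and for TEX14/ILK that cell held 2.42% and 1.76%. Cell types were not assigned, so a cell type that should lack these genes was not at hand to set the level of free RNA, and a share counts cells with a UMI, not cells that express the gene.

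At list level the same reading was made with 500 UMIs per cell. A UMI of the meiosis and spermatogenesis list was present in 61.8% of MY1 cells (55.4 to 67.9), 70.8% of MY2 cells (66.4 to 75), 17.8% of FYB cells (15.6 to 20.2) and 12.9% of FYH cells (8.32 to 18.7). For DNA replication the shares were 77.6%, 86.5%, 40.8% and 29.1%, and for mitosis 75.2%, 85.6%, 42.7% and 34.1%. The intervals cover counting error within a library, and cells are not replicates of a code.

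These lists met in the same cells. In a further thinning to 500 UMIs, a replication UMI was present in 91.9% of the MY1 cells that had a meiosis UMI and in 59.2% of those that had none, and in MY2 the shares were 94.5% and 62.6%. In FYB they were 54.9% and 37.7%. A neuron-list UMI went the other way in MY2, with 57.1% of cells with a meiosis UMI and 73.2% of those without. In MY1 these shares were 58.1% and 66.3%, and in FYB 69.2% and 79.4%. In FYH they were close, at 81.8% of 22 cells with a meiosis UMI and 80.3% of 157 without. Such shares move with how evenly a cell's UMIs are spread over genes, and that part was not tested.

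**Figure D3:**
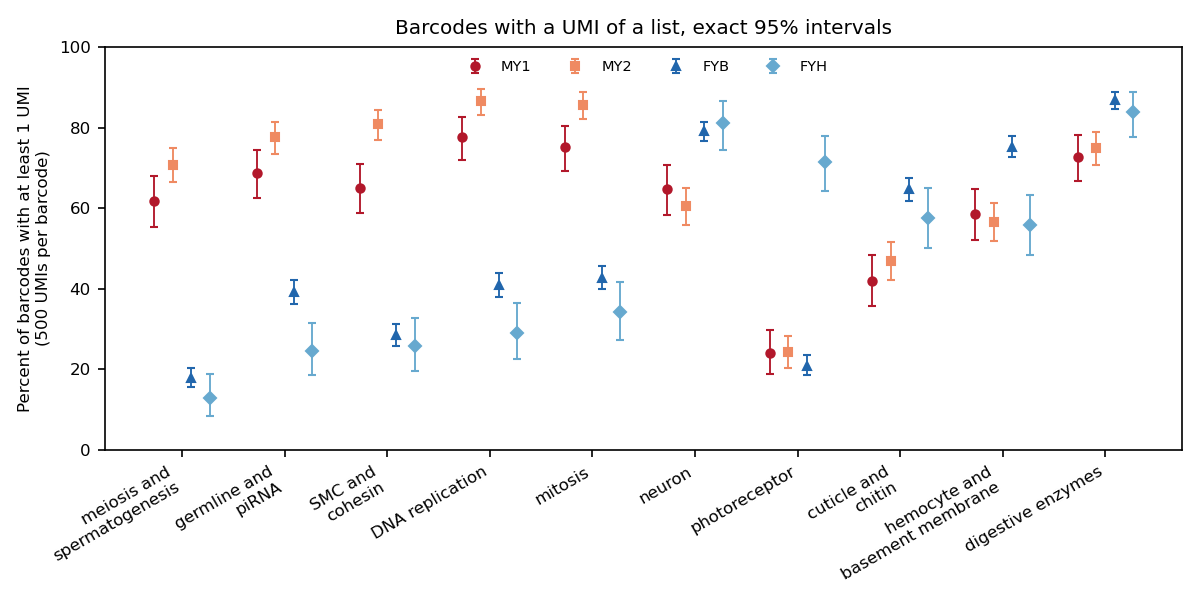
Percent of cells with at least 1 UMI of a list after thinning every cell to 500 UMIs, for MY1 (246 cells), MY2 (452), FYB (1103) and FYH (179), with exact 95% intervals. The 5 lists at the left are higher in both MY codes, the photoreceptor list is high in FYH alone at 71.5%, and the neuron, cuticle and digestive lists are higher in both FY codes.

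Genes of general cell maintenance had smaller shares of calls than the DNA replication, SMC and mitosis lists. The proteasome list had 7 of 28 tested genes called higher, the spliceosome list 12 of 37, the heat shock and chaperonin list 11 of 40, the respiratory chain list 7 of 45, the secretory pathway list 6 of 42 and the translation factor list 3 of 41, with none lower in any of them by total count. Under TMM 4 proteasome genes were called higher and none lower, and the spliceosome list had 3 higher and 1 lower, the heat shock list 3 and 2, the respiratory list 2 and 0, the secretory list 4 and 3 and the translation factors 3 and 3. Against the 22.3% of all genes called higher by total count, the shares by total count of the proteasome, spliceosome and heat shock lists were near or somewhat above the background, and those of the other 3 were below it. Without a gap, 27 of 28 proteasome, 26 of 37 spliceosome and 30 of 40 heat shock genes were higher, beside 51.4% of all genes. In the same order 1, 3 and 3 were lower. Their median log2 ratios were 1.175, 0.98 and 1.05 (0.69, 0.50 and 0.57 above all genes). Of the respiratory, secretory and translation factor genes 28, 27 and 22 were higher without overlap, and 2, 4 and 11 lower. Under TMM the median log2 ratio of the secretory pathway list was -0.06 and that of the translation factors -0.10, and by total count they were 0.51 and 0.47.

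UQCRFS1/RFESP (DAPMA1EVG011655), the Rieske iron-sulfur subunit of respiratory complex III, was at 812.2 and 738.3 CPM in MY1 and MY2 and at 123.6 and 91.9 CPM in FYB and FYH, a gap of 5.97-fold (4.99 to 7.18). Cytosolic ribosomal proteins did not share the upward shift. Of 63 tested, 48 were lower in both MY codes without overlap, beside 24.9% of all genes, and 1 was called lower and 1 higher. The median log2 ratio was -0.49 (-0.98 relative to all genes), and under TMM 14 were called lower and 1 higher. RPL7A was the member called lower, at 642.6 and 498.1 CPM against 1624 and 1388 CPM. The gene called higher, RPL3 (DAPMA1EVG030552), had 24, 44, 17 and 3 counts and shares its identifier with another gene model, and with both summed its log2 ratio was -0.44.

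**Figure D4:**
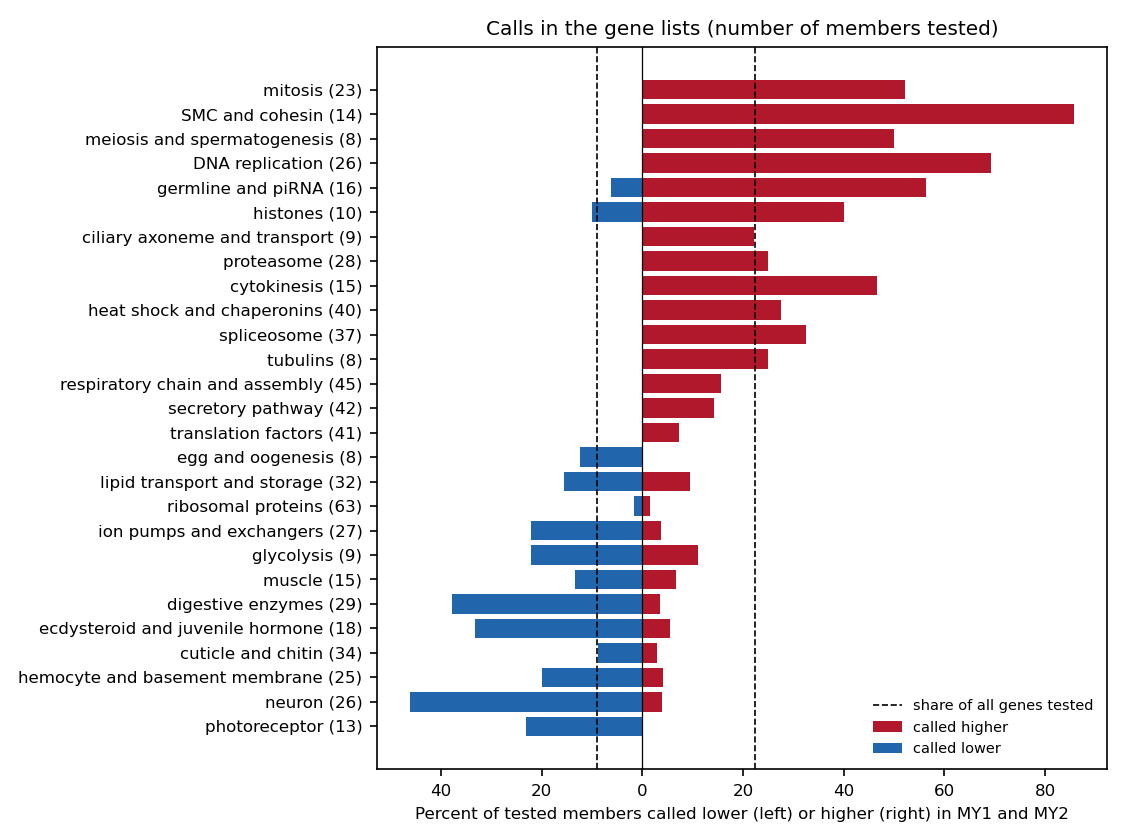
Percent of the tested members of each list called higher (right) or lower (left) in MY1 and MY2, for the lists with at least 8 members tested, ordered by their median log2 ratio, with the number tested in parentheses. Dashed lines mark 22.3% and 9.01%, the shares of all 6418 genes, and the SMC and cohesin list reaches farthest to the right with 12 of 14.

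The neuron list had the most calls downward for its size, 12 of 26 tested, with 1 called higher and a median log2 ratio of -1.51 (-1.997 relative to all genes). By TMM 15 were called lower and none higher. The genes called lower included the sodium pump beta subunits ATP1B1/NRV3 (DAPMA1EVG001527 and DAPMA1EVG017864), which also stand in the ion pump list. Of those with most counts, CPLX1/CPX (DAPMA1EVG022340), which regulates vesicle release, was at 156.6 and 181.7 CPM in MY1 and MY2 and at 388.9 and 560.6 CPM in FYB and FYH, a gap of 2.14-fold (1.74 to 2.65). Members with roles in neuropeptide processing, picked after their values were seen, were also among those called. PCSK2/AMON (DAPMA1EVG015046), a prohormone convertase, was at 6.52 and 43.8 CPM in MY1 and MY2 and at 134.2 and 831.7 CPM in FYB and FYH. SCG5/7B2 (DAPMA1EVG018558), its chaperone, was at 26.1 and 40.6 CPM against 99.5 and 693.9 CPM, and PAM/PHM (DAPMA1EVG022858), which amidates peptides, at 6.52 and 1.62 CPM against 88.9 and 193 CPM.

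MAP1B/FUTSCH (DAPMA1EVG014156), a microtubule-binding protein of axons, was at 101.1 and 124.9 CPM against 511.8 and 896.1 CPM, a gap of 4.10-fold (3.23 to 5.26). The enzymes of amine synthesis TH/PLE and DDC/TDC2 were lower as well, TH/PLE at 65.2 and 64.9 CPM against 214.1 and 252.7 CPM. FYH was above FYB for 11 of the 12 genes called lower. Other parts of the vesicle release machinery were not called, such as VAMP2/NSYB at 45.7 and 58.4 CPM against 51.3 and 32.2 CPM. SCN2A/PARA, the voltage-gated sodium channel, was the member called higher, at 32.6 and 35.7 CPM against 14.3 and 4.595 CPM.

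Opsin genes were far higher in FYH than in the other 3 codes. The opsin OPN4/RH2 (DAPMA1EVG025431) was at 22.8 and 4.87 CPM in MY1 and MY2, at 89.7 CPM in FYB and at 3630 CPM in FYH. It was called lower, but a single cell held 94.1% of its FYB counts, and for the other opsin called lower, DAPMA1EVG031945, a single cell held 92.0%. OPN4/RH3 (DAPMA1EVG011413) was at 0 CPM in MY1, MY2 and FYB and at 413.6 CPM in FYH. The median log2 ratio of the list was -3.74 with both FY codes (-4.23 relative to all genes) and 0.47 without FYH, so its direction rests on that code. Of 13 tested members 3 were called lower by total count and 4 under TMM. In barcodes under 500 UMIs the summed list was at 3799 and 2598 CPM in MY1 and MY2. It was at 762.3 CPM in FYB and at 107600 CPM in FYH there. Both MY codes were thus above FYB in small barcodes, also for both opsins called lower. DAPMA1EVG025431 was at 1234 and 786.3 CPM in MY1 and MY2 against 192.5 CPM in FYB.

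The reverse, genes high in FYB alone, was seen for the globins and the Hox genes. CYGB/GLOB1 (DAPMA1EVG022505) was at 88.1 and 19.5 CPM in MY1 and MY2, at 1012 CPM in FYB and at 4.595 CPM in FYH. HOXA7/ANTP (DAPMA1EVG033221), which patterns the trunk in arthropods, was at 3.26 and 4.87 CPM in MY1 and MY2, at 94.2 CPM in FYB and at 9.19 CPM in FYH. None of the 2 globins and 3 Hox genes tested was called by total count. TMM called all 3 Hox genes lower, but only through the floor, since they had 0, 2 and 0 counts in FYH. FYH was the lowest code for both globins, below MY1 and MY2.

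Digestive enzymes had 11 of 29 tested genes called lower and 1 higher, and 87 listed genes had counts. Its median log2 ratio was -0.90 (-1.39 relative to all genes), and under TMM 12 were called lower and 1 higher. CTRL/CG10472 (DAPMA1EVG019741), a chymotrypsin-like protease, was at 0 and 0 CPM in MY1 and MY2 and at 108.5 and 335.5 CPM in FYB and FYH. ANPEP/CG14516 (DAPMA1EVG014870), a membrane aminopeptidase, was at 65.2 and 53.5 CPM against 303.8 and 634.1 CPM, a gap of 4.66-fold (2.98 to 7.71). The serine protease-like TPSAB1/CG13318 (DAPMA1EVG023486), which fell outside the list, had the largest gap downward of the genes with a symbol, at 9.79 and 6.49 CPM against 763.6 and 960.4 CPM. At 500 UMIs per cell the list had a mean of 1.74 and 1.58 UMIs in MY1 and MY2 and of 2.95 and 3.05 UMIs in FYB and FYH. Cells with at least 3 of its UMIs made up 19.9% and 19.3% in MY1 and MY2 and 43.2% and 34.1% in FYB and FYH.

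Of the hemocyte and basement membrane list 5 of 25 tested genes were called lower and 1, SPINT2/PPN, higher, and under TMM 12 were called lower. Over the list the median log2 ratio was -1.28 (-1.76 relative to all genes). COL4A5/COL4A1 (DAPMA1EVG029557), a chain of basement membrane collagen IV, was at 52.2 and 43.8 CPM in MY1 and MY2 and at 707.8 and 395.2 CPM in FYB and FYH, a gap of 7.57-fold (4.41 to 13.8). SPINT3/PPN (DAPMA1EVG029332) was at 133.7 and 13.0 CPM against 2027 and 3249 CPM, the opposite of SPINT2/PPN. The matrix protein PAPLN/PPN (DAPMA1EVG018391) was at 492.5 and 434.8 CPM against 1232 and 1466 CPM. COMP/TSP (DAPMA1EVG023741), a thrombospondin-like matrix protein, was at 19.6 and 8.11 CPM against 465.8 and 344.6 CPM. A single cell held 50.7% of its FYH counts, and its FYH level was 8.60 CPM on 1 lane and 730 CPM on the other.

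In the cuticle and chitin list 3 of 34 tested genes were called lower and 1 higher, a share near the 9.01% of all genes, and 16 were lower without overlap, beside 24.9%. CHIT1/CHT10 (DAPMA1EVG019437), a chitinase, was at 3.26 and 13.0 CPM in MY1 and MY2 and at 170.4 and 418.2 CPM in FYB and FYH. CPR49AE (DAPMA1EVG029391), a cuticle protein of the RR family, was at 0 and 6.49 CPM against 416.1 and 252.7 CPM, at least 25.8-fold lower. That fold sets FYH against the floor of MY1, and a single cell held 83.6% of the FYH counts. The related CPR49AA (DAPMA1EVG029406) was at 0 CPM in MY1, 230.4 CPM in MY2 and 958 and 712.3 CPM in FYB and FYH, so MY1 and MY2 differed from each other there. With TMM 11 of the 34 were called lower. Part of these calls, and of the 16 lower without overlap, came from the floor of FYH. CPR78CC (DAPMA1EVG033394) was among both, with 0, 1, 352 and 0 counts in MY1, MY2, FYB and FYH. The median log2 ratio was -1.27 (-1.76 relative to all genes).

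Of the lipid transport and storage genes 5 of 32 tested were called lower and 3 higher by total count, beside 9.01% and 22.3% of all genes. Under TMM 12 were called lower and 2 higher. The median log2 ratio of the list was -0.39 (-0.87 relative to all genes). FABP4/FABP (DAPMA1EVG014823), a fatty acid binding protein, was at 0 and 0 CPM in MY1 and MY2 and at 218.6 and 289.5 CPM in FYB and FYH, at least 22.3-fold lower. The neighbouring entry FABP3/FABP (DAPMA1EVG014822) was at 13.0 and 22.7 CPM against 566.1 and 225.2 CPM. Among the 8 egg and oogenesis genes tested, the lipoprotein receptor LRP4/YL (DAPMA1EVG034371), nearest to the fly yolk receptor, was called lower, at 146.8 and 112 CPM against 1835 and 546.8 CPM. It was the only call of that list, a share near the 9.01% of all genes.

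Ecdysteroid and juvenile hormone genes, which time moulting and reproduction in arthropods, had 6 of 18 tested called lower and 1 higher, and under TMM 9 lower and none higher. The median log2 ratio was -0.91 (-1.39 relative to all genes). The ecdysone receptor NR1H3/ECR (DAPMA1EVG014763) was at 91.3 and 60.04 CPM in MY1 and MY2 and at 640.7 and 445.7 CPM in FYB and FYH, a gap of 4.88-fold (3.18 to 7.72). CYP2U1/CYP18A1 (DAPMA1EVG015809), whose fly relative inactivates ecdysone, was at 0 and 0 CPM against 134.9 and 82.7 CPM. EPHX1/JHEH2 (DAPMA1EVG016310), a juvenile hormone epoxide hydrolase, was at 156.6 and 118.4 CPM against 616.6 and 427.4 CPM.

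Ion pumps had 6 of 27 tested genes called lower and 1 higher, and 9 lower under TMM, with a median log2 ratio of -0.50 (-0.99 relative to all genes). Those called lower by total count held 2 alpha and 2 beta subunit genes of the sodium pump, and the beta subunit genes were also counted in the neuron list. ATP1B1/NRV3 (DAPMA1EVG017864), a beta subunit, was at 78.3 and 84.4 CPM in MY1 and MY2 and at 474.9 and 464.1 CPM in FYB and FYH, a gap of 5.50-fold (3.90 to 7.84). CA2/CAH1 (DAPMA1EVG014910), a carbonic anhydrase, was at 365.3 and 256.4 CPM against 1497 and 1300 CPM. The muscle list had 2 of 15 called lower, a share near the 9.01% of all genes, and 1 higher, below the 22.3% of all genes. Its median was -0.68 (-1.17 relative to all genes), and under TMM 3 were lower and none higher. Glycolysis had 2 of 9 lower and 1 higher, with a median of -0.50 (-0.99 relative to all genes), and under TMM 4 lower and none higher. Of the 9 glycolysis genes 5 were lower without overlap, beside 24.9% of all genes.

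Genes without a symbol were called lower more often than the others, 272 of 1992 (13.7%) beside 306 of 4426 (6.91%). DAPMA1EVG024668 was at 3.26 and 4.87 CPM in MY1 and MY2 and at 2390 and 4016 CPM in FYB and FYH, and the interval of the ratio of FYB to MY1 was 131.4 to 28950, since MY1 had 1 count. DAPMA1EVG025438 was at 9.79 and 4.87 CPM against 1980 and 2697 CPM. These were the largest gaps of all genes called lower with at least 200 counts.

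Barcodes under 500 UMIs took no part in the calls, but they come from the same libraries and may hold RNA set free by broken cells. Of the 1432 genes called higher, 1056 were called higher from these small barcodes too, and of the 578 called lower, 214 were called lower, with none called in the opposite direction. Over all 7230 genes with at least 50 counts in the small barcodes, 1594 were called higher and 403 lower. TEX14/ILK was at 853.9 and 1012 CPM in the small barcodes of MY1 and MY2 and at 49.1 and 92.2 CPM in those of FYB and FYH. RNASET2/RNASEX25 was at 629.8 and 446 CPM against 5624 and 4013 CPM. Differences were mostly smaller there, for 49 of the 67 named genes called higher and 41 of the 45 called lower. The named genes were picked by their calls in the larger barcodes, so smaller differences elsewhere are partly given by the choice.

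The other codes of the mixed sample, FO1, FO2 and F4W, with 87, 145 and 41 cells, took no part in the calls. Of the 617 genes called higher with at least 200 counts, 91.9% were lower in all 3 of these codes than in both MY1 and MY2. Of the 346 called lower, 48.0% were higher in all 3 than in both MY codes. These genes were picked for high or low MY values, so both shares are partly set by that choice. The same shares over all genes were not computed. The 3 codes were also shallow, with 40082 UMIs in F4W, so few or no counts could pass as lower. The summed level of the meiosis and spermatogenesis list was 2929 and 3469 CPM in MY1 and MY2, 526.1 and 349.2 CPM in FYB and FYH, and 391.4, 470.1 and 474 CPM in FO1, FO2 and F4W. For DNA replication the sums were 4928 and 5588 CPM in MY1 and MY2, 1407 and 845.5 CPM in FYB and FYH, and 1425, 1701 and 2096 CPM in the other 3 codes.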

How the data were processed

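Per the labels' protocols, whole Daphnia magna were dissociated with collagenase and cells were barcoded by inDrops. The authors deposited whole-number counts per barcode and gene, with a library code and lane for each barcode. The aligner, annotation, genome build and UMI collapsing are not given in the sources used here, and neither is any treatment of doublets, which was therefore not applied here. Gene names were read from the files, where 9030 of 33957 genes carry a human or fly symbol, and none of their identifiers matched the RefSeq table. Many gene models (17518) share an identifier with another, so reads may be split between them.

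Raw counts of barcodes with at least 500 UMIs were summed per code and divided by the total (CPM). Genes with at least 50 counts over the 4 sums were kept. Calls needed a 2-fold gap between the nearest codes, with counts under 3 set to 3, and no test was possible with 1 sample per group. Ratios carry exact conditional Poisson intervals and shares carry Clopper-Pearson intervals, both at 95%, which cover counting error only. A fold is between the nearest codes, a log2 ratio between means. For shares of cells, each cell was thinned at random to 500 UMIs. The 30 gene lists were matched by symbol, with homonyms removed after the values were seen. Some genes stand in more than 1 list, such as KIF23/PAV in the mitosis and cytokinesis lists. Members, lists and rules were chosen with earlier results of these data known. Named genes were the 10 with a symbol and 3 without that had the largest gap in each direction with at least 200 counts, and in each list the called members, up to the 4 of most counts. Further members of lists were named after their values were seen, to show exceptions and steps of a process, and some members are not reported here.

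Alternatives were other UMI and count minimums, TMM scaling (edgeR 4.0.16 in R 4.3.3), equal depth, lanes apart, cells weighted equally, the top barcode of each gene left out, gene models summed by identifier, other gaps and each code left out in turn. Computations used Python 3.11.15, numpy 2.4.6, scipy 1.17.1 and pandas 2.3.3, and the scripts were tested on simulated data.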

Additional observations from a re-analysis of the deposited data

How the results depend on the processing

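No gene called in either direction was called in the opposite one under any alternative that kept genes as listed. For several alternatives this was fixed by construction. Other gaps, other count minimums, lanes apart and a code left out use the same counts and could not reverse a 2-fold call. The TMM factors were too close to each other to do so. The 1432 genes called higher became 2162 with every deposited barcode, 617 with a minimum of 200 counts, 733 with TMM scaling, 893 with sums thinned to the smallest, 675 with lanes apart, 409 with a 4-fold gap and 3301 with no gap. Leaving out a code gave 1634 to 2271. The 578 called lower became 346 with a minimum of 200 counts, 1106 with TMM, 383 with thinned sums, 236 with lanes apart, 236 with a 4-fold gap and 1597 with no gap, and 723 to 993 when a code was left out. A stricter minimum or gap, fewer counts, or more sums that must not overlap lower a count by construction, and a looser gap or fewer codes raise it. For the other changes the cause was not tested.

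Median log2 ratios changed sign for 4 lists. The photoreceptor list ran from -4.87 without MY1 to 0.47 without FYH. Lipid transport and storage was at 0.019 in barcodes under 500 UMIs only, and translation factors were at -0.10 and the secretory pathway at -0.061 under TMM. Of the named genes, 3 changed sign. PAPLN/PPN was at 0.071 and SIX2/SO at 0.081 in barcodes under 500 UMIs only, and RPL3 was at -0.44 with gene models summed. Of the other recomputed log2 ratios of named genes, 399 moved and 1422 stayed close. No paired analysis was possible because the codes of the 2 pairs share no replicate numbers and the result comes from no test. FYH, with 217618 counts, limits the depth, since 3 of its counts are 13.8 CPM.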

Other observations

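The contrast split families of related genes. Of 426 fly symbols that stood nearest to at least 2 tested genes, 26 had a gene called higher and another called lower in MY1 and MY2. Besides AUB and PPN these included TMC, a mechanosensory channel-like protein, with TMC7/TMC (DAPMA1EVG027120) called higher and TMC3/TMC (DAPMA1EVG031209) lower. TMC3/TMC was at 0 and 11.4 CPM in MY1 and MY2 and at 313.6 and 206.8 CPM in FYB and FYH. Of 7 genes nearest to the fucosyltransferase FUCTC, 1 was called higher and 4 lower, and of 16 nearest to IRE1, the stress sensor of the endoplasmic reticulum, 1 was called higher and 6 lower. This count was made after the values were seen, and families with many genes had more chances to be split.

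Calls were not evenly spread over contigs. On the contig that the gene names call m000036F, 21 of 71 tested genes (29.6%) were called lower, beside 9.01% of all genes, and 13 of the 21 had no symbol. It also held CPR49AE, TFPI/CG2816 and SPINT3/PPN, each named above or among the largest gaps, and TFPI/CG2816 was at 0 and 11.4 CPM in MY1 and MY2 and at 415.3 and 436.5 CPM in FYB and FYH. A single cell held 66.3% of the FYH counts of TFPI/CG2816. The contig was picked after its count was seen.

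In small barcodes, FYH held more of several genes called higher than FYB did. SPINT2/PPN, absent from cells of both FY codes, was at 31.1 CPM in barcodes under 500 UMIs of FYB and at 104.8 CPM in those of FYH, beside 3325 and 1668 CPM in those of MY1 and MY2. AURKA/AURA was at 17.8 CPM in the small barcodes of FYB and 59.6 CPM in those of FYH. GM2A, called lower, was at 229.8 and 120.5 CPM in the small barcodes of MY1 and MY2 and at 3.26 and 13.0 CPM in their larger ones.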
